A study of Mus musculus with 32 samples.

Results

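The genes described here encode the core heat shock and chaperone proteins of the cytosol and of mitochondria: Hspa1a, Hspa1b, Hspa8, Hspa9, Hspd1, Hspe1, Hsp90aa1, Dnajb1 and Hsph1. Every probe set that the array annotation assigns to a single one of these genes was used, which gave 25 of the 45101 probe sets and 9 of the 18193 genes of the array. Hsp90ab1, which also belongs to this group, was not analysed here. The values came from 32 Affymetrix Mouse Genome 430 2.0 arrays in 3 experiments on the B-cell transcription factor Ebf1.

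The Ebf1-ER course used E14.5 fetal liver cells of C57BL/6J Ebf1-/- embryos, expanded on OP9 stroma, infected with pMIG-Ebf1-ER, sorted for GFP and plated on OP9 stroma again. Ebf1-ER is an Ebf1 fused to a receptor domain that answers to 4-hydroxytamoxifen, which was given at 0.1 µM, and cells were taken at 0, 6, 12 and 24 h on 2 arrays each. All 4 groups lacked Ebf1 and carried Ebf1-ER, and no group received the compound without Ebf1-ER, so the effects of time in culture, of the compound and of Ebf1-ER cannot be told apart. In the mouse pre-B-cell line 230238, cells infected with pMIG-Ebf1-engrailed, in which Ebf1 is joined to a repressor domain, were set against cells with the empty pMIG vector, on 3 arrays each, and all were sorted for GFP. The third experiment set enlarged lymph nodes of C57BL/6J Ebf1+/-Pax5+/- mice of about 30 weeks, frozen, thawed and live sorted, against sorted wild-type pro-B cells. It held 8 lymph nodes with 2 arrays each and 2 wild-type samples. The deposited RMA values are on a log2 scale and had been centred for each probe set, in the line and the course on the median of the experiment. They therefore show differences between arrays of an experiment but no expression levels, and the labelled cell types could not be checked by the level of their markers. Ebf1 itself, over 5 probe sets that may lie outside a deleted or added stretch, was lower in 4 at the later times of the course, lower in 4 with Ebf1-Engrailed, and lower in 4 and higher in 1 in the lymph nodes. In such bulk samples, fewer cells of a type and less RNA per cell cannot be told apart.

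Heat shock proteins hold unfolded or newly made proteins and pass them on for folding. The Hsp70 proteins bind short exposed stretches of a client in a cycle driven by ATP, in which Hsp40 partners deliver the client and Hsp110 proteins exchange the nucleotide. Hsp90 acts later, on clients such as kinases and steroid receptors, and the mitochondrial Hsp60 and Hsp10 proteins form a chamber that folds imported proteins. Some members are made in nearly every growing cell, while others are kept low until heat shock factors switch them on by binding repeats of a short element in their promoters.

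Transcripts of 6 of the 9 genes were higher at 6, 12 and 24 h than at 0 h, and transcripts of 2 were lower. Hsph1, Hspa8, Hspd1, Hspe1, Hspa9 and Hsp90aa1 were between 2.21-fold and 4.11-fold higher, while Hspa1a and Dnajb1 were 1.42-fold and 1.47-fold lower. By probe set, 16 of 25 were higher and 3 were lower at an adjusted p under 0.05 in limma, and 6 did not pass. Over all 45037 probe sets tested, 36.1% passed in this comparison, 17.5% as higher and 18.6% as lower. The median log2 change of the 25 probe sets was 0.76, against 0.01 for all probe sets. With 1 probe set per gene, the most variable one over the course, 8 of 9 genes passed, beside 42.2% of the 18193 genes. That choice favours large differences.

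**Figure D1:**
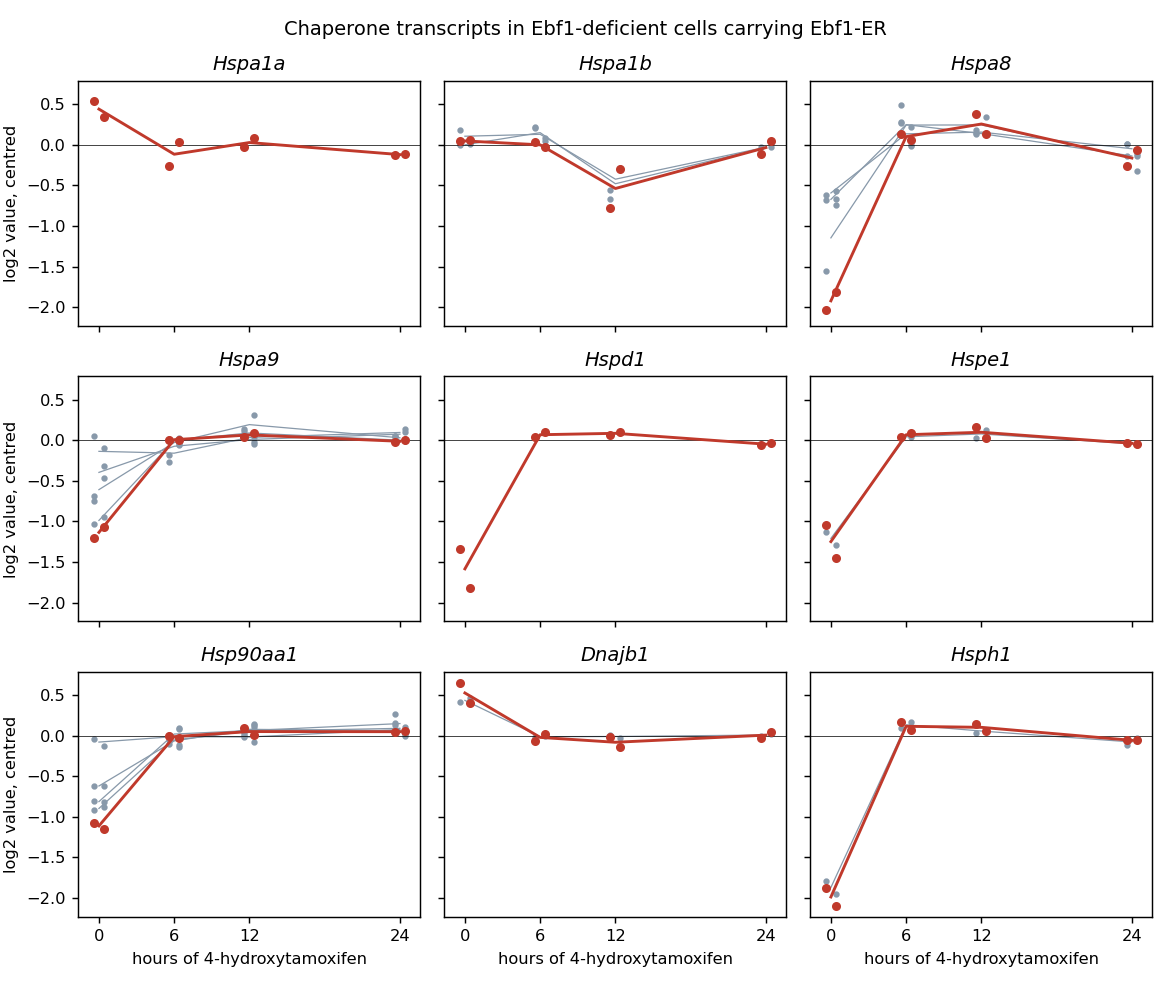
Centred log2 values (vertical axis) of the 9 chaperone genes against hours of 4-hydroxytamoxifen (horizontal axis). Points are arrays, lines join the means of the 2 arrays of a time, red marks each gene's most variable probe set and grey the gene's other probe sets; Hspa8, Hspa9, Hspd1, Hspe1, Hsp90aa1 and Hsph1 are lower at 0 h than on all later arrays in red, and Hspa1a and Dnajb1 are high at 0 h.

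Hspa8 encodes Hsc70, the Hsp70 protein that most cells make without stress. Its probe set 1431182_at had log2 values of -2.03 and -1.81 at 0 h, 0.14 and 0.06 at 6 h, 0.38 and 0.13 at 12 h, and -0.26 and -0.06 at 24 h. The arrays at 0 h lay below all 6 later arrays, with a gap of 1.55 between the groups. The mean of the later times was higher by 1.99 ± 0.10 on the log2 scale (SE, 2 arrays per time, adjusted p = 6.04e-06). The other 3 Hspa8 probe sets were also higher, by 0.67 to 1.26, so the size of the change differed by probe set.

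Hsph1 encodes Hsp105, the Hsp110 protein that exchanges nucleotide on Hsp70. Probe set 1423566_a_at had log2 values of -1.88 and -2.10 at 0 h, 0.16 and 0.06 at 6 h, 0.14 and 0.06 at 12 h, and -0.06 and -0.06 at 24 h. The arrays at 0 h lay 1.82 below the lowest later array. The change was 2.04 ± 0.08 (adjusted p = 2.52e-06), the largest among the 25 probe sets, and the second probe set, 1425993_a_at, changed by 1.91 ± 0.08.

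Hsp90aa1 encodes the more inducible form of cytosolic Hsp90. Probe set 1426645_at had -1.08 and -1.15 at 0 h, 0.00 and -0.03 at 6 h, 0.10 and 0.00 at 12 h, and 0.04 and 0.06 at 24 h. The 6 later arrays spanned 0.12 and did not overlap with those at 0 h. The change was 1.14 ± 0.07 (adjusted p = 1.16e-05). Of its 5 probe sets 4 were higher, by 0.65 to 1.14, and 1433251_at did not pass, with a change of 0.09 ± 0.08 (adjusted p = 0.446).

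The mitochondrial chaperones were higher at the later times as well. Hspa9 encodes mortalin, the mitochondrial Hsp70 that pulls proteins in and helps them fold. Probe set 1418503_at had -1.21 and -1.06 at 0 h, 0.00 and 0.01 at 6 h, 0.04 and 0.09 at 12 h, and -0.02 and 0.00 at 24 h. The change was 1.15 ± 0.07 (adjusted p = 1.30e-05), with no overlap between 0 h and later arrays. Of the 5 Hspa9 probe sets 3 were higher, while 1431274_a_at (0.40 ± 0.15, adjusted p = 0.0703) and 1453811_at (0.13 ± 0.12, adjusted p = 0.465) did not pass, and in both the 0 h and later arrays overlapped.

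Hspd1 encodes Hsp60, the barrel of the mitochondrial folding chamber. Its single probe set, 1426351_at, had -1.34 and -1.83 at 0 h, 0.04 and 0.10 at 6 h, 0.07 and 0.10 at 12 h, and -0.06 and -0.04 at 24 h. The change was 1.62 ± 0.12 (adjusted p = 2.81e-05). Hspe1 encodes Hsp10, the lid of that chamber. Probe set 1422579_at had -1.05 and -1.45 at 0 h, 0.04 and 0.09 at 6 h, 0.16 and 0.03 at 12 h, and -0.03 and -0.04 at 24 h. The change was 1.29 ± 0.11 (adjusted p = 5.48e-05) and the other probe set changed by 1.23 ± 0.08. For both genes the lower array of the pair at 0 h was replicate 2, and both pairs lay below all later arrays.

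Hspd1 and Hspe1 lie head to head, and the stretch between them is shown because the pair moved together. The window is the 215 bases between the Hspe1 start and 1 of the 2 Hspd1 starts annotated in RefSeq on GRCm38.p6, chr1:55087933-55088147, printed on the plus strand, 5′ to 3′ towards Hspe1. Capitals mark the letters of heat shock units, in which a pair is GAANNTTC or TTCNNGAA.
Hspe1: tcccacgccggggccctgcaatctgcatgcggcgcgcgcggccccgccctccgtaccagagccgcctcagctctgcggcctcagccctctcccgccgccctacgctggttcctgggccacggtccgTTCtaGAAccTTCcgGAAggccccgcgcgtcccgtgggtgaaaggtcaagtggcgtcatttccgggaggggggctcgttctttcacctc
The window holds 3 overlapping pairs, which together make a run of 4 units from position -89 relative to the Hspe1 start. The other Hspd1 start lies inside Hspe1, and the 250 bases before it, chr1:55088244-55088493, hold no pair. At least 1 pair was found in 12.8% of the 32851 promoter windows searched, 250 bases each before a start, on both strands. A run of 3 units, in which a pair of each kind share a unit, was found in 0.466% of them. A match of letters is a description and was not tested for binding.

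**Figure D2:**
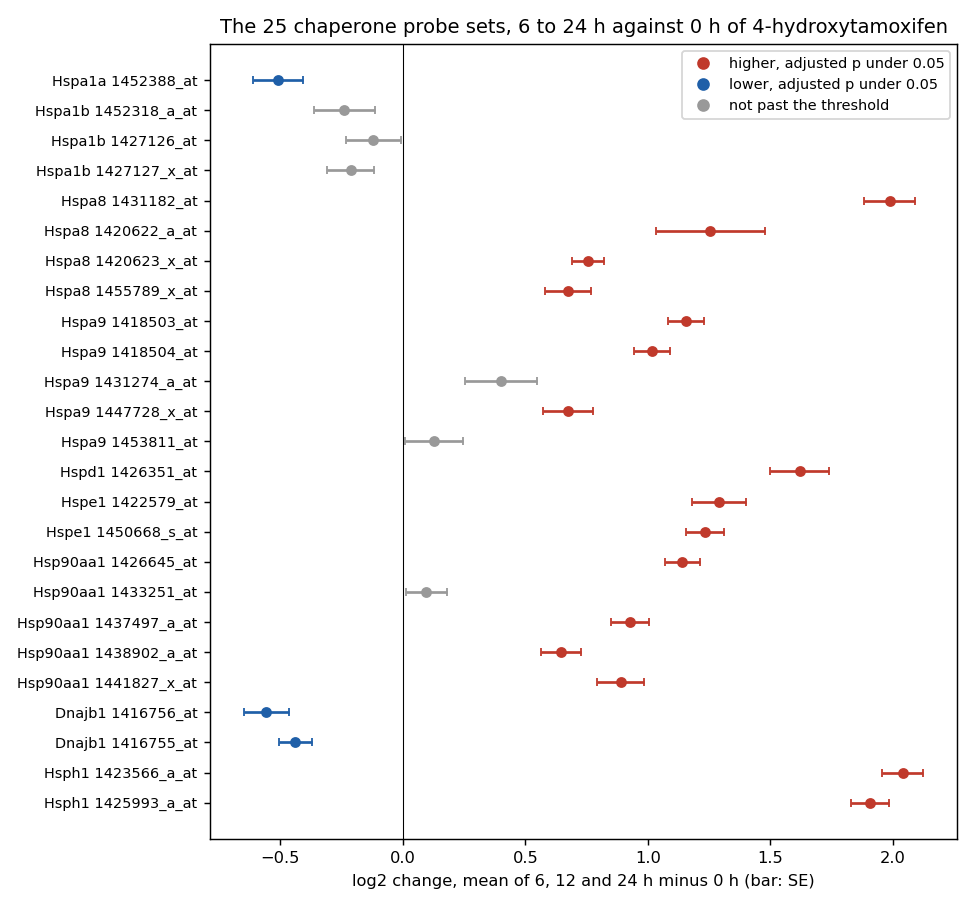
Log2 change of the 25 chaperone probe sets (rows), mean of 6, 12 and 24 h minus 0 h, with limma's SE as bars. Red rows passed as higher, blue as lower, and grey did not pass; 16 are red, 3 blue (Hspa1a and both of Dnajb1) and 6 grey.

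Hspa1a, Hspa1b and Dnajb1 did not follow that pattern. Hspa1a and Hspa1b encode the same stress-induced Hsp70 protein from neighbouring, nearly identical genes, so their probe sets may each measure transcripts of both, and how far a value belongs to either gene is uncertain. Hspa1a probe set 1452388_at had 0.54 and 0.34 at 0 h, -0.26 and 0.03 at 6 h, -0.03 and 0.09 at 12 h, and -0.12 and -0.12 at 24 h. Its arrays at 0 h lay above the later ones with a gap of 0.26. It fell by 0.51 ± 0.10 (adjusted p = 0.00481), and the call was lost without replicate 1 of 0 h (adjusted p = 0.0517).

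Hspa1b probe set 1452318_a_at had 0.04 and 0.05 at 0 h, 0.03 and -0.03 at 6 h, -0.78 and -0.30 at 12 h, and -0.12 and 0.05 at 24 h. Only the arrays at 12 h stood below the others, and 0 h and later arrays overlapped. The change to the mean of the later times was -0.24 ± 0.12 and did not pass (adjusted p = 0.188), and neither did those of the other 2 probe sets. At 12 h all 3 Hspa1b probe sets were lower than at 0 h, by -0.48 to -0.59 (adjusted p = 0.0101 to 0.0287), beside 17.1% of all probe sets that were lower at 12 h. For 1452318_a_at the call was lost without replicate 1 of 12 h, when its change was -0.35 (adjusted p = 0.0937), and without either array of 0 h (adjusted p = 0.0742 and 0.0724).

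Dnajb1 encodes the Hsp40 partner that stimulates Hsp70 under stress. Probe set 1416756_at had 0.65 and 0.40 at 0 h, -0.06 and 0.02 at 6 h, -0.02 and -0.15 at 12 h, and -0.04 and 0.05 at 24 h. It fell by 0.56 ± 0.09 (adjusted p = 0.00175), and 1416755_at fell by 0.44 ± 0.07 (adjusted p = 0.00125). In both probe sets the 0 h arrays lay above all 6 later arrays. The decreases of Hspa1a and Dnajb1 did not pass in a single fit over the groups of all 3 experiments (adjusted p = 0.847 and 0.118).

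The promoters of Hspa1a, Hspa1b and Dnajb1 are printed with that of Hsph1, which changed most, because the genes moved in different directions. Each is the 250 bases before the annotated start in RefSeq on GRCm38.p6, 5′ to 3′ along the gene, with heat shock pairs in capitals. The windows are chr17:34972157-34972406 on the minus strand for Hspa1a, chr17:34959239-34959488 on the minus strand for Hspa1b, chr8:83607925-83608174 on the plus strand for Dnajb1, and chr5:149636337-149636586 on the minus strand for Hsph1.
Hspa1a: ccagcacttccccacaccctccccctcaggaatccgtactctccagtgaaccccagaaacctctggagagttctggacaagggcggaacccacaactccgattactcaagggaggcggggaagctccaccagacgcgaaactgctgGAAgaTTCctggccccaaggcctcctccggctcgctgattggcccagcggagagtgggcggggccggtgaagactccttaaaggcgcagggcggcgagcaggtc
Hspa1b: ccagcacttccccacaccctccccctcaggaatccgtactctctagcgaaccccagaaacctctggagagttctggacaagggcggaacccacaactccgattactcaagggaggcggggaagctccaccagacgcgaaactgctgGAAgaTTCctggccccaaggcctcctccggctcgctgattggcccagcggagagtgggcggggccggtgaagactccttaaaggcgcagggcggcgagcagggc
Dnajb1: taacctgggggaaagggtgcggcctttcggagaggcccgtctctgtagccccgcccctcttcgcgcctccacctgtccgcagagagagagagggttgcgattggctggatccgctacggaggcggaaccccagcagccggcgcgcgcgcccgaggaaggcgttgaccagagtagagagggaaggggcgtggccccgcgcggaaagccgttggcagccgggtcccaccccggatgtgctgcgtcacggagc
Hsph1: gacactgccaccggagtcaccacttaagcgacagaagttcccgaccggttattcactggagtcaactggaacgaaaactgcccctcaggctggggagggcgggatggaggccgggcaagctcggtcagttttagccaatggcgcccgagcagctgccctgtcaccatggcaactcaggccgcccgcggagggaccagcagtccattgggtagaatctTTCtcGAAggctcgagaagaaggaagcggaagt
The Hspa1a and Hspa1b windows differ at 3 of 250 positions, and each holds 1 pair, which begins at position -104 from the start. The Hsph1 window holds 1 pair at -33. These letters are not in the Dnajb1 window. Dnajb1 and Hsph1 each have a second annotated start, and the windows before those hold 0 pairs and 1 pair. Windows of 6 of the members were examined. Those of Hspa8, Hspa9 and Hsp90aa1 were not examined here, so whether they hold such a pair is not known from this search. Hspa1a, which was lower after 0 h, and Hsph1, which was higher, each had 1 pair in the window printed. The part of these letters in the changes was not tested.

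These counts were already reached at 6 h. There, 16 probe sets were higher and 3 lower than at 0 h, beside 14.2% and 14.7% of all probe sets. At 12 h the counts were 16 and 6, beside 15.4% and 17.1%, and at 24 h they were 16 and 3, beside 16.1% and 16.3%. Between 6 and 24 h, a comparison that leaves out the 0 h arrays, 1 of 25 passed, beside 6.17% of all probe sets, 2.84% as lower. That was Hspa8 1420623_x_at, with 0.27 and 0.22 at 6 h and -0.14 and -0.13 at 24 h, a change of -0.39 ± 0.08 (adjusted p = 0.0344). Its gene's other 3 probe sets had changes of -0.18 to -0.40 that did not pass. The call was lost without any single array of 6, 12 or 24 h.

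The other chaperone genes of the array were read from lists, with 1 probe set per gene and chosen with earlier results of these data known. Of 94 further genes in 8 lists, 55 were higher and 11 lower at the later times, with a median log2 change of 0.48, against 0.04 for all genes, of which 22.0% were higher and 20.2% lower. TRiC and prefoldin, which fold actin, tubulin and other cytosolic proteins, had 12 of 14 genes higher, among them the TRiC subunits Cct3 (1.53 ± 0.07), Cct8 (1.22 ± 0.07) and Cct4 (1.17 ± 0.08). The prefoldin subunit Pfdn5 was lower there (-0.63 ± 0.07). Of 12 mitochondrial chaperones and proteases 9 were higher, led by Dnaja3 (1.41 ± 0.08), the Hsp40 partner of mortalin. The proteases Htra2 (1.24 ± 0.07) and Clpp (1.12 ± 0.07) were higher too, and Hscb, which serves the assembly of iron-sulfur clusters, was lower (-0.35 ± 0.07).

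Among 12 Hsp90 cochaperones 7 were higher and 2 lower. Fkbp4, which helps Hsp90 hold steroid receptors, had log2 values of -1.68 and -1.69 at 0 h, 0.04 and 0.06 at 6 h, 0.14 and 0.04 at 12 h, and -0.11 and -0.04 at 24 h. Its change of 1.71 ± 0.07 (adjusted p = 2.52e-06) was the largest of that list. The ATPase activator Ahsa1 (1.31 ± 0.07) and Stip1, which links Hsp70 to Hsp90 (1.11 ± 0.07), were higher as well, while Cdc37l1 (-0.53 ± 0.09) and Unc45a (-0.34 ± 0.11) were lower.

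Of 19 Hsp40 genes and Hsp70 cochaperones 10 were higher, among them Dnajc2 (1.31 ± 0.07), which works at the ribosome, and the nucleotide exchange factors Hspbp1 (1.23 ± 0.08) and Bag4 (1.22 ± 0.08), an Hsp70-binding Bag protein. Dnajb4 (-1.36 ± 0.19) and Dnajb5 (-0.34 ± 0.10), relatives of Dnajb1, were lower. Of 8 other Hsp70 and Hsp110 genes 3 were higher, Hspa4 (1.10 ± 0.09), Hspa14 (1.02 ± 0.07) and Hspa12b (0.47 ± 0.08), and 1 was lower, Hspa2 (-0.64 ± 0.08). None of 7 small heat shock proteins passed in limma, with changes between -0.32 and 0.24 and 1 at an unadjusted p under 0.05. Of 4 heat shock factor genes and regulators, Hsf2 was higher (0.48 ± 0.08) and Hsbp1, a binding protein of heat shock factor, lower (-0.26 ± 0.07).

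Endoplasmic reticulum genes divided in a similar way, with 13 of 18 higher and 3 lower. Creld2 (1.82 ± 0.09), Sdf2l1 (1.37 ± 0.07) and the Hsp110 relative Hyou1 (1.04 ± 0.11) were higher. The lower genes were Herpud1 (-1.18 ± 0.08), which takes part in the removal of misfolded proteins, the stress transcription factor Ddit3 (-1.02 ± 0.17) and the Hsp40 protein Dnajb9 (-0.58 ± 0.07). All of these passed the limma test at an adjusted p under 0.05.

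**Figure D3:**
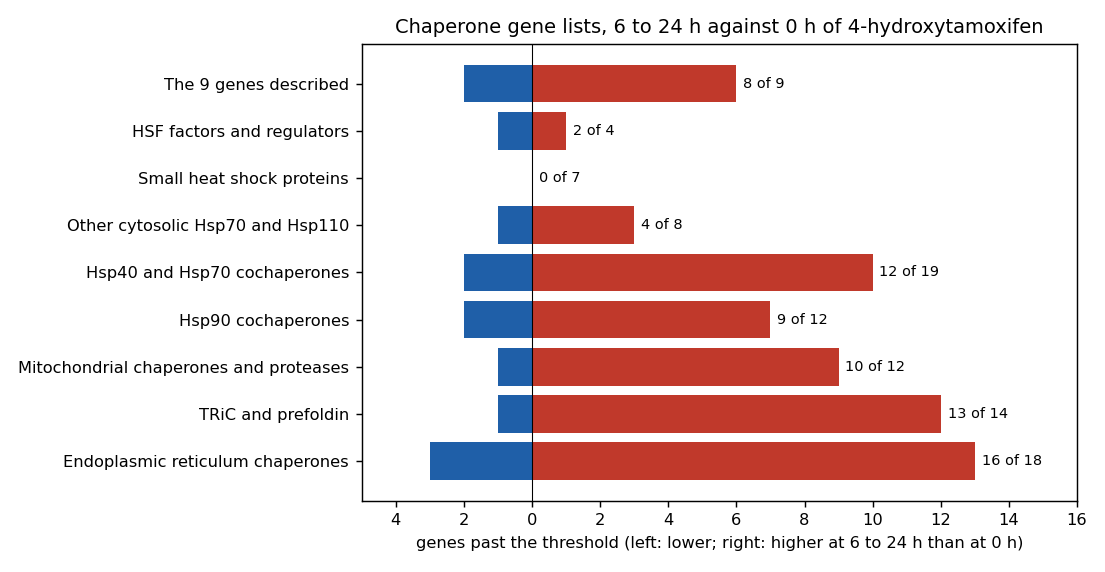
Number of genes past the threshold (horizontal axis, lower to the left and higher to the right of 0) in each chaperone list, mean of 6, 12 and 24 h against 0 h, with 1 probe set per gene. Text beside each bar gives the genes past the threshold of those measured; TRiC and prefoldin have 12 higher and 1 lower, and small heat shock proteins have none.

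Immediate-early genes, which cells switch on within minutes of a stimulus or of handling, moved with the 0 h arrays. Of 15 such genes 13 were lower at the later times and 1 was higher, with a median log2 change of -3.57. Their median centred value was 3.70 and 3.18 on the arrays at 0 h, and lay between -0.22 and 0.08 on the 6 later arrays. Of 6 B-lineage markers 3 were higher, Igll1 (2.04 ± 0.07), Vpreb1 (1.39 ± 0.09) and Cd79b (0.37 ± 0.10), and of 6 stroma markers 3 were lower. Of the other cell types' markers, 3 of 5 myeloid genes were lower and 1 was higher, and 2 of 6 T-cell, 2 of 3 NK-cell and 1 of 5 granulocyte genes were lower, with changes down to -2.91. The part of any of these in the chaperone changes was not tested.

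In the 230238 line both samples numbered 3 stood apart from replicates 1 and 2 in several members, and results are given with and without them. Hspa1b was the member that differed most between Ebf1-Engrailed and the empty vector. Probe set 1452318_a_at had log2 values of -0.29, -0.19 and -0.77 with Ebf1-Engrailed, and 3.08, 2.61 and 0.19 with the empty vector. The groups did not overlap, but empty vector replicate 3 lay far below the other empty vector arrays and nearer to the Ebf1-Engrailed arrays than to them. The change was -2.38 ± 0.70 and did not pass without a block (adjusted p = 0.0908). Its other probe sets, 1427126_at (-2.58 ± 0.72) and 1427127_x_at (-2.40 ± 0.66), did not pass either. The replicate numbers were taken to pair the samples of this experiment, which the labels do not state. With the number as a block in limma all 3 Hspa1b probe sets passed as lower, with adjusted p of 0.0180 for 1452318_a_at.

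Hspa1a, by contrast, had 0.11, 0.20 and -0.05 with Ebf1-Engrailed, and 0.00, 0.00 and -0.16 with the empty vector. The 2 groups overlapped, and the change was 0.14 ± 0.10 (adjusted p = 0.506). The probe sets of these near-identical genes thus gave different values on the same arrays.

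Without a block, 1 of 25 member probe sets passed in this comparison, beside 8.85% of all probe sets, 3.72% as lower. It was Hspa8 1420622_a_at, with -0.17, -0.38 and -0.28 with Ebf1-Engrailed, and 0.33, 0.17 and 0.24 with the empty vector. It was lower by -0.52 ± 0.10 (adjusted p = 0.0184). With the replicate number as a block 5 passed, all lower, beside 13.7% of all probe sets, 6.54% as lower. The fifth was Hspe1 1450668_s_at (-0.57 ± 0.13, adjusted p = 0.0367), for which Ebf1-Engrailed arrays had -0.42, -0.63 and -0.12 and empty vector arrays 0.29, 0.15 and 0.12.

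The samples numbered 3 were lowest for Hsph1 and Hsp90aa1. Hsph1 1423566_a_at had -0.01, 0.01 and -0.81 with Ebf1-Engrailed, and 0.38, 0.09 and -1.25 with the empty vector. Hsp90aa1 1426645_at had -0.02, 0.02 and -0.51 with Ebf1-Engrailed, and 0.78, 0.52 and -0.67 with the empty vector. For both genes the groups overlapped. Without both samples numbered 3, a choice made after seeing the data, 12 of 25 passed, all lower, beside 18.4% of all probe sets, 8.91% as lower. They were the 3 of Hspa1b, 2 of Hspa8, 2 of Hspe1, 2 of Hsp90aa1, 2 of Dnajb1 and that of Hspd1. The Hspa1b change was then -3.08 and that of Hspa8 1420622_a_at -0.52. Without empty vector replicate 3 alone, 8 passed as lower, but the share over all probe sets for that fit is not given here.

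**Figure D4:**
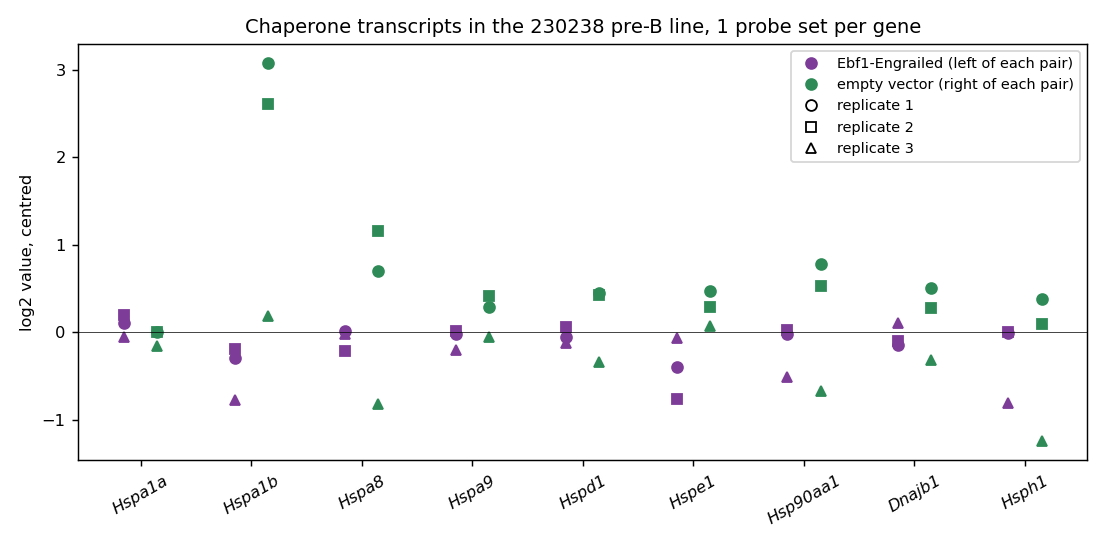
Centred log2 values (vertical axis) of 1 probe set per chaperone gene in the 230238 line, with Ebf1-Engrailed in purple left of the empty vector in green. Each point is an array and its shape gives the replicate number; Hspa1b is at 3.08 and 2.61 on empty vector replicates 1 and 2 and no higher than 0.19 on the other 4 arrays.

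For Hspe1 1422579_at the groups did not overlap, with -0.40, -0.76 and -0.07 with Ebf1-Engrailed, and 0.47, 0.29 and 0.07 with the empty vector, but the change of -0.69 ± 0.19 did not pass (adjusted p = 0.0769). In the probe sets shown for the remaining genes the groups overlapped. Hspa8 1431182_at had 0.02, -0.21 and -0.02 with Ebf1-Engrailed, and 0.70, 1.15 and -0.82 with the empty vector. Hspa9 1418503_at had -0.02, 0.02 and -0.21 with Ebf1-Engrailed, and 0.29, 0.41 and -0.05 with the empty vector, while its 1453811_at did not overlap between the groups (-0.24 ± 0.09) and did not pass (adjusted p = 0.173). Hspd1 had -0.05, 0.05 and -0.12 with Ebf1-Engrailed, and 0.45, 0.43 and -0.34 with the empty vector. In each of these 3 genes empty vector replicate 3 fell among the Ebf1-Engrailed arrays or below them. Dnajb1 1416756_at had -0.14, -0.10 and 0.10 with Ebf1-Engrailed, and 0.51, 0.28 and -0.32 with the empty vector, where replicate 3 was again the lowest array. Of the other 94 chaperone genes 4 were higher and 2 lower with Ebf1-Engrailed, beside 6.29% and 4.71% of all genes. The lower ones were the endoplasmic reticulum gene Herpud1 (-0.53 ± 0.09) and the protease Htra2 (-0.50 ± 0.12). The higher ones were Hsbp1 (0.40 ± 0.09) and, named after their values were seen, the Hsp110 gene Hspa4l (1.39 ± 0.16), the Hsp40 gene Dnajb2 (0.97 ± 0.08) and the small heat shock protein Cryab (0.36 ± 0.08). Of the 15 immediate-early genes 4 were higher and 3 lower. B-lineage markers fell in 4 of 6 genes with Ebf1-Engrailed, with a median log2 change of -1.55. The part of these genes in the chaperone values was not tested.

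In the lymph nodes of Ebf1+/-Pax5+/- mice, probe sets of all 3 mitochondrial members were higher than in wild-type pro-B cells. The 8 lymph nodes had Hspa9 1418503_at values from -0.71 to 0.37 with a median of 0.13 (means of 2 arrays each), and the wild-type samples had -1.42 and -1.36. No lymph node came near the wild-type values, and the difference was 1.43 ± 0.23 (n = 8 lymph nodes and 2 samples, adjusted p = 0.00280 in limma). Of the other Hspa9 probe sets, 1418504_at (1.23 ± 0.22) and 1447728_x_at (0.52 ± 0.14) were higher too, while 1431274_a_at (-0.47 ± 0.15, adjusted p = 0.0529) and 1453811_at (-0.14 ± 0.11, adjusted p = 0.456) had changes below 0 that did not pass. Hspd1 ranged from -0.70 to 0.14 with a median of 0.05 in lymph nodes, and was -0.84 and -0.77 in wild-type cells. It was higher by 0.77 ± 0.19 (adjusted p = 0.0219), and lymph node 292, at -0.70, lay nearest to the wild-type samples. The call was lost without wild-type sample 1 (0.73, adjusted p = 0.140) and without sample 2 (0.81, adjusted p = 0.138). Hspe1 1450668_s_at ranged from -0.43 to 0.28 with a median of 0.08 in lymph nodes, and was -0.54 and -0.84 in wild-type cells. It was higher by 0.71 ± 0.16 (adjusted p = 0.0141), but its probe set 1422579_at, at 0.42 ± 0.18, did not pass (adjusted p = 0.145).

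In all, 5 of 25 member probe sets were higher and 1 lower, beside 8.26% and 6.94% of all probe sets. The lower one was Hspa8 1431182_at, from -0.88 to 0.42 with a median of -0.04 in lymph nodes, and 0.44 and 1.97 in wild-type cells. Its difference of -1.35 ± 0.41 stood at an adjusted p of 0.0499 and rested on wild-type sample 2, without which it was -0.59 (adjusted p = 0.525). It also lost the call when any of 7 of the 8 lymph nodes was left out (adjusted p = 0.0538 to 0.0798). Hspa8's other 3 probe sets differed by -0.01 to 0.08 and did not pass. The wild-type samples decided other calls too, though a fit without either of them has only 1 wild-type sample left.

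Hspa1a and Hspa1b differed more between samples of a group than between the groups. Hspa1a ranged from -0.80 to 6.06 with a median of -0.28 in lymph nodes, and was 0.67 and 4.00 in the wild-type samples. Hspa1b 1452318_a_at ranged from -3.29 to 3.16 with a median of 0.02 in lymph nodes, and was -0.28 and 2.38 in the wild-type samples. In both genes wild-type sample 2 was above all lymph nodes except 327. The differences of -1.35 ± 1.72 for Hspa1a and -1.03 ± 1.39 for Hspa1b did not pass (adjusted p = 0.661 and 0.680). Hsp90aa1 1426645_at ranged from -0.85 to 0.39 in lymph nodes, and was -0.17 and -0.02 in wild-type cells. Dnajb1 1416756_at ranged from -0.29 to 0.84 in lymph nodes, and was 0.11 and 0.25 in wild-type cells. Hsph1 1423566_a_at ranged from -1.05 to 0.88 in lymph nodes, and was -0.15 and 0.21 in wild-type cells. In these 3 probe sets the wild-type values lay inside the lymph node ranges, and the differences of 0.10 ± 0.26, -0.08 ± 0.28 and 0.07 ± 0.39 did not pass. In 2 other probe sets of these genes both wild-type values lay above all lymph nodes without passing the test. Dnajb1 1416755_at reached at most 0.50 in lymph nodes, and was 0.55 and 0.63 in wild-type cells (-0.51 ± 0.17, adjusted p = 0.0722). Hsp90aa1 1437497_a_at reached at most 0.28 in lymph nodes, and was 0.35 and 0.46 in wild-type cells (-0.42 ± 0.22, adjusted p = 0.246).

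Among the other 94 chaperone genes 23 were higher and 2 lower in lymph nodes, beside 9.52% and 7.12% of all genes. Those higher included the TRiC subunits Cct4 (0.83 ± 0.23) and Cct3 (0.80 ± 0.23), the mitochondrial gene Hscb (0.83 ± 0.10) and Hspbp1 (1.48 ± 0.23). The lower ones were Hspa12b (-0.93 ± 0.28) and, named after its value was seen, Dnajc7 (-1.14 ± 0.12), an Hsp40 protein that binds Hsp70 and Hsp90. Of the 15 immediate-early genes 3 were lower and none was higher. Granulocyte markers were lower in lymph nodes for 5 of 5 genes, with a median log2 change of -7.67, and myeloid markers for 4 of 5. The median centred value of the granulocyte markers ranged from -0.44 to 1.98 in lymph nodes, and was 8.18 and 8.34 in the wild-type samples. Of 6 B-lineage markers none passed in limma, and 2 had an unadjusted p under 0.05. The part of these markers in the chaperone differences was not tested. Freezing and an age are stated for the lymph nodes only, and the wild-type samples were sorted pro-B cells. Handling, age, cell source and genotype therefore cannot be told apart.

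**Figure D5:**
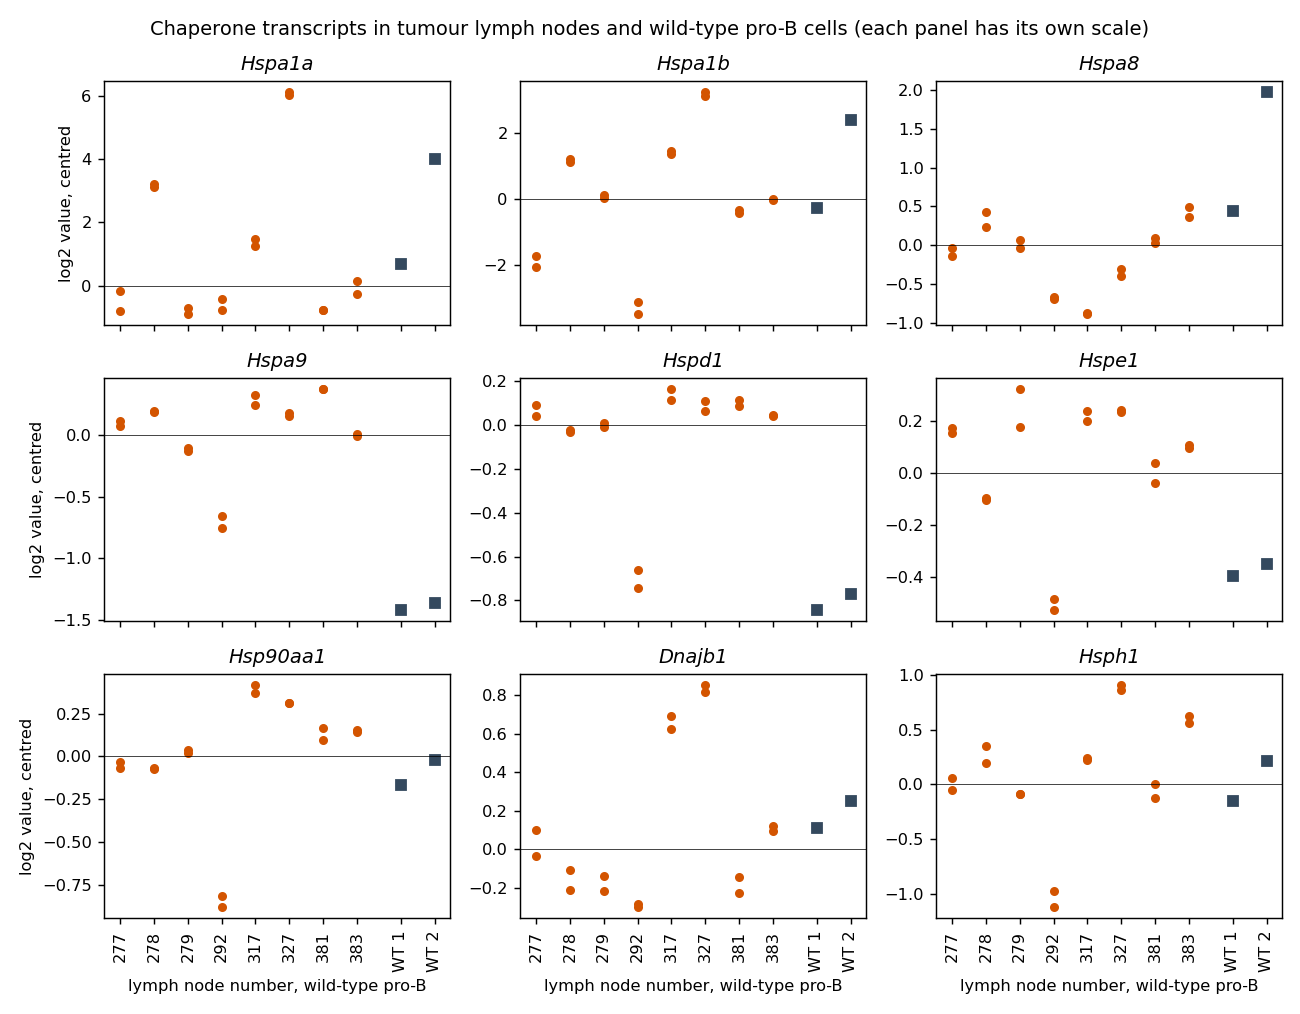
Centred log2 values (vertical axis, own scale per panel) of 1 probe set per chaperone gene in lymph nodes, 2 arrays each in orange, and in 2 wild-type pro-B samples in dark squares at the right. Hspa9 lies below all lymph nodes in both wild-type samples, Hspa1a and Hspa1b spread over more than 6 log2 units, and lymph node 292 is low in most panels.

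The 8 lymph nodes differed from each other in 22 of 25 member probe sets by the moderated F test of limma, in which the error is the difference between paired arrays of the same node, beside 54.0% of all probe sets. With 1 probe set per gene, 9 of 9 genes passed, beside 56.8% of all genes. Hspa1a averaged 6.06 in lymph node 327, 3.17 in 278 and 1.36 in 317, and lay between -0.80 and -0.06 in the other 5. Hspa1b 1452318_a_at averaged 3.16 in lymph node 327, 1.39 in 317 and 1.16 in 278, between -0.39 and 0.06 in 279, 381 and 383, -1.91 in 277 and -3.29 in 292. The 2 arrays of a lymph node differed by at most 0.63 for Hspa1a and 0.37 for Hspa1b, while the lymph nodes spanned 6.87 and 6.45. Lymph nodes 327, 278 and 317 were thus the highest for both genes.

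Hsph1 1423566_a_at ranged from -1.05 in lymph node 292 to 0.88 in 327 with a median of 0.12. Dnajb1 1416756_at was highest in 327 (0.84) and 317 (0.66), and its other lymph nodes lay between -0.29 and 0.11. Hsp90aa1 1426645_at was -0.85 in lymph node 292 and between -0.07 and 0.39 in the others. Lymph node 292 held the lowest value in 20 of the 25 member probe sets, and lymph node 327 the highest in 9. How often they did so over all probe sets was not counted. Lymph node 292 also had the lowest median of the 8 for TRiC and prefoldin (-0.38) and mitochondrial chaperones and proteases (-0.33). The same held for endoplasmic reticulum genes (-0.32), Hsp40 genes and Hsp70 cochaperones (-0.23) and Hsp90 cochaperones (-0.08). In the other chaperone lists it was not the lowest. In lymph node 292 the medians of the B-lineage, T-cell and myeloid markers were 0.04, 0.27 and -0.09, each inside the range of the other lymph nodes, that of the stroma markers was 0.17, the highest of the 8, and that of the immediate-early genes was -0.24. In lymph node 327 the myeloid, NK-cell and T-cell medians were -1.21, -1.11 and -0.43, each the lowest of the 8. The part of these markers in the chaperone values was not tested.

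Over the 8 lymph nodes, Hspa1b was set against each of the other 8 members, a comparison chosen after seeing the data. Pearson's r was 0.86 with Hsph1, 0.80 with Hsp90aa1 and 0.80 with Hspa1a (exact permutation p = 0.00957, 0.0174 and 0.00739, adjusted over 8 relations 0.0383, 0.0463 and 0.0383). Spearman's rho for these was 0.69, 0.67 and 0.67 (exact permutation, adjusted p = 0.166 each), which did not pass. Without lymph nodes 292 and 327, the farthest from the Hspa1b median, r was 0.38, 0.47 and 0.71 over 6 lymph nodes. The size of r with Hsph1 and Hsp90aa1 thus depended on those lymph nodes. Leaving them out also narrows the Hspa1b range, which can itself lower r, so whether a relation holds among the others cannot be read from this. With Dnajb1 r was 0.73 (exact permutation p = 0.0296, adjusted 0.0592). The points share their arrays and scaling, and Hspa1a and Hspa1b may share probes. For Hspa8, Hspa9, Hspd1 and Hspe1 r lay between 0.07 and 0.67 and did not pass (adjusted p = 0.12 to 0.863).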

How the data were processed

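Transcripts were measured on 32 arrays in 3 experiments. The authors deposited a single matrix of log2 values for 45101 probe sets, and the submitters' processing notes name RMA as their source. A base of 2 was assumed for the logarithm, which no source used here gives. In the line and in the course each probe set's median over the experiment's arrays was 0 within 1e-05, so values had been centred, while in the lymph node experiment 24.0% of probe sets had a median of 0 and the constant subtracted is unknown. Centring keeps differences within an experiment and removes levels, so signal over background could not be read and no filter on low values was applied. Precision is limited by the number of arrays.

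Groups came from the sample labels. Replicates are not stated to be separate cultures or animals, so the p-values describe sample-to-sample spread that may be technical, and lymph node numbers were read as 1 mouse each. Gene symbols came from GEO's platform annotation and were brought up to date with the mouse gene list: 34945 probe sets had 1 symbol, 932 several and 9224 none, and only those with 1 were used for genes. The members and gene lists were chosen with earlier results of these data known. The genes named are all members, and in each list up to 3 called genes with the largest change in each direction at the later times.

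Each comparison was a contrast in limma 3.58.1, with lmFit and eBayes (R 4.3.3, version 1.17.8 of data.table, statmod 1.5.0) on 45037 probe sets, the 64 array controls left out, with a separate fit per experiment and two-sided Benjamini-Hochberg adjusted p-values over all of them. A call is an adjusted p under 0.05, and errors beside log2 changes are limma's SE. For the comparison with wild-type cells, paired arrays of a lymph node entered as their mean. The fit was tested on simulated data. Tables, correlations, promoter searches and figures used Python 3.11.15 with numpy 2.4.6, pandas 2.3.3, scipy 1.17.1 and matplotlib 3.10.9. Same-numbered samples of the 230238 line deviated together (correlations of 0.26, 0.39 and 0.48 over probe sets), so its replicate numbers were taken to pair the samples. The labels do not state such a pairing. Ebf1-Engrailed 1 correlated more with empty vector 2 (0.34) than with empty vector 1 (0.26). The other differently numbered samples lay between -0.45 and 0.12. In the course, correlations of same-numbered samples lay between -0.17 and 0.15, and its numbers were not taken to pair samples. Alternatives were gene-level tests, array scaling, a variance filter, a robust prior, a single fit over all groups, the replicate block, array weights, a random block and leaving out each replicate.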

Additional observations from a re-analysis of the deposited data

Results flagged for a closer look

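Lymph node 292 stood apart as the low sample in 8 of the 25 member probe sets, by Dixon's test over the 8 lymph nodes, which flags about 1 in 20 groups by chance. Its values were -0.71, -0.77 and -0.38 for Hspa9 (1418503_at, 1418504_at and 1447728_x_at), -0.70 for Hspd1 and -0.51 for Hspe1 1422579_at. For Hsp90aa1 they were -0.85, -0.76 and -0.43 (1426645_at, 1437497_a_at and 1438902_a_at). The nearest other lymph node lay between -0.12 and 0.01 in these probe sets. Probe sets of a gene share their transcript, so the 8 are 4 genes. Dixon's test was run on the 25 member probe sets only, so no share over all probe sets stands beside this count.

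The Hspa8 probe set 1420623_x_at changed less from 0 h to 24 h than from 0 h to 6 h, by -0.39 on the log2 scale, a difference tested directly in limma (adjusted p = 0.0344).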

How the results depend on the processing

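The counts of higher member probe sets at the later mean, 6 h, 12 h and 24 h, each against 0 h, stayed between 14 and 17 under the alternatives run by probe set, and no called member turned its sign. Lower members of the course were more fragile. A single fit over all groups takes its spread from all 3 experiments. It left 0 lower probe sets at the later mean, 6 h, 12 h and 24 h, and 0 for 24 h minus 6 h. Leaving out replicates gave 2 to 4 lower probe sets for the later mean, 2 to 6 at 12 h and 0 to 1 for 24 h minus 6 h. With the replicate block, 24 h minus 6 h had 0. Crossed numbers at 24 h, added after seeing the data, left 16 higher and 3 lower at 24 h. In the 230238 line, lower probe sets numbered 4 with the variance filter, 5 with the replicate block, 12 without both samples numbered 3, 3 in the single fit and 0 to 8 when each replicate was left out, and 1 gene passed when probe sets were averaged per gene. In the lymph nodes, lower probe sets numbered 2 with array medians subtracted, 0 with a robust prior, 2 with the lymph node as a random block, 3 in the single fit and 0 to 1 with a sample left out, and higher ones 1 to 6. Of these alternatives, only the line's replicate block and its fit without both samples numbered 3 have a share over all probe sets given. The other counts cannot be set against the array as a whole. Over single genes, 944 values kept direction and call, 36 lost the call, 19 gained it and 17 turned sign while outside the call. Over 1 probe set per gene, the replicate block also lost the call of Hspa1a at 12 h (adjusted p = 0.0514) and changed no other call of the course. The cause of these shifts was not tested.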
